A study of Mus musculus with 24 samples.

Results

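The chemokine and chemokine receptor genes of the mouse were followed across 24 expression arrays of a tumour stroma fraction. Their members were the genes whose symbols name a CC, CXC or CX3C chemokine ligand (Ccl, Cxcl, Cx3cl1) or receptor (Ccr, Cxcr, Cx3cr1), and the arrays held 47 of them, 33 ligands and 14 receptors, among 17097 genes. The cells are labelled as the neural fraction of the stroma of orthotopic tumours, grown in NSG mice, which lack T, B and NK cells, from SCC25, a human oral squamous carcinoma line. In all groups the tumour cells carried a short hairpin RNA: shEGR2_40.9 or shEGR2_38.9 against EGR2, a transcription factor gene, shGAL against GAL, the galanin gene, or the non-targeting PLKO. For each hairpin the mice received a palmitic acid-rich (PA-rich) diet or a control diet, which gave 8 groups of 3 arrays. Because the hairpins were in the human tumour cells and the arrays read mouse transcripts, silencing could not be checked here. The series calls the 3 arrays of a group technical replicates, and the p-values measure only the spread between these arrays.

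Chemokines are small secreted proteins that bind heparan sulfate and form gradients, along which leukocytes migrate by way of G protein-coupled receptors. CXC ligands such as Cxcl1 and Cxcl2 attract neutrophils through Cxcr2, and Cxcl10 is induced by interferons and attracts activated lymphocytes through Cxcr3. Ccl2 recruits monocytes through Ccr2, Ccl20 acts through Ccr6, and Ccl19 and Ccl21 draw dendritic cells and lymphocytes through Ccr7 into lymphatic vessels and lymph nodes. In skin and oral mucosa, keratinocytes are known sources of Ccl27, Ccl20 and Cxcl14, and lymphatic endothelial cells are a known source of Ccl21.

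The arrays had near-equal medians, from 6.71 to 6.81 on the log2 scale, and 1 array stood apart. The control-diet array of shEGR2_38.9 numbered replicate 3 had a mean of 7.09, against 7.15 to 7.17 in the other 23 arrays, and its Gapdh probe sets gave 0.76 more at the 3′ than at the 5′ end, against -0.12 to 0.08 in the others. Calls of members that were lost without it are named beside each result, and calls gained without it are not named. The arrays were scanned in 6 batches of 4, each with both diets of 2 hairpins, so that the diets could be compared within batches, while each silencing hairpin shared a single batch with PLKO. Whether RNA of the human tumour cells bound to the probes was not tested. Of 9 Schwann cell and glia genes measured, Sox10, Mbp, Ngfr, Egr2, Erbb3 and Pmp22 lay above the dim level defined below. The other genes, S100b, Foxd3 and Gfap, were dim, as were 30.7% of all genes. This count therefore does not tell whether the label of the cells was met. The keratinocyte genes Krt5 and Krt14 had group means of 12.77 to 13.22 over the 8 groups.

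Of the 47 members, 23 passed the filter on low signal and 24 were dim. A gene was dim when its probe set averaged, over all arrays, less than 6.27 on the log2 scale, the 40th percentile of probe set means. Among ligands 20 of 33 passed and 13 were dim, and among receptors 3 of 14 passed and 11 were dim. The dim receptors included Cxcr2, the receptor of Cxcl1 and Cxcl2 (4.89 to 5.40 over all arrays), Cxcr3, the receptor of Cxcl10 (5.85 to 6.17), Ccr2, the receptor of Ccl2 (5.66 to 6.21), and Ccr6, the receptor of Ccl20 (5.92 to 6.32). Ccr1, Ccr1l1, Ccr3, Ccr4, Ccr8, Cxcr5 and Cxcr6 were also dim. The passing receptors were Ccr9, Ccr10 and Cx3cr1, and Cxcr4, Ccr7 and Cxcr1 were not analysed here. The dim ligands were the monocyte and macrophage attractants Ccl3, Ccl4, Ccl6, Ccl7, Ccl8 and Ccl12, the eosinophil attractant Ccl11, and Ccl22, Cxcl5, Cxcl9, Cxcl11, Cxcl12 and Cxcl17. Ccl7 had group means between 5.73 with shEGR2_40.9 on the PA-rich diet and 6.36 with shEGR2_38.9 on the control diet. Ccl12 ran from 4.82 to 6.23 and Ccr4 from 5.44 to 6.41, and in both the highest array was the one that stood apart. Signals of different probe sets are not on 1 scale, so levels are compared within a gene and not between genes.

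**Figure D1:**
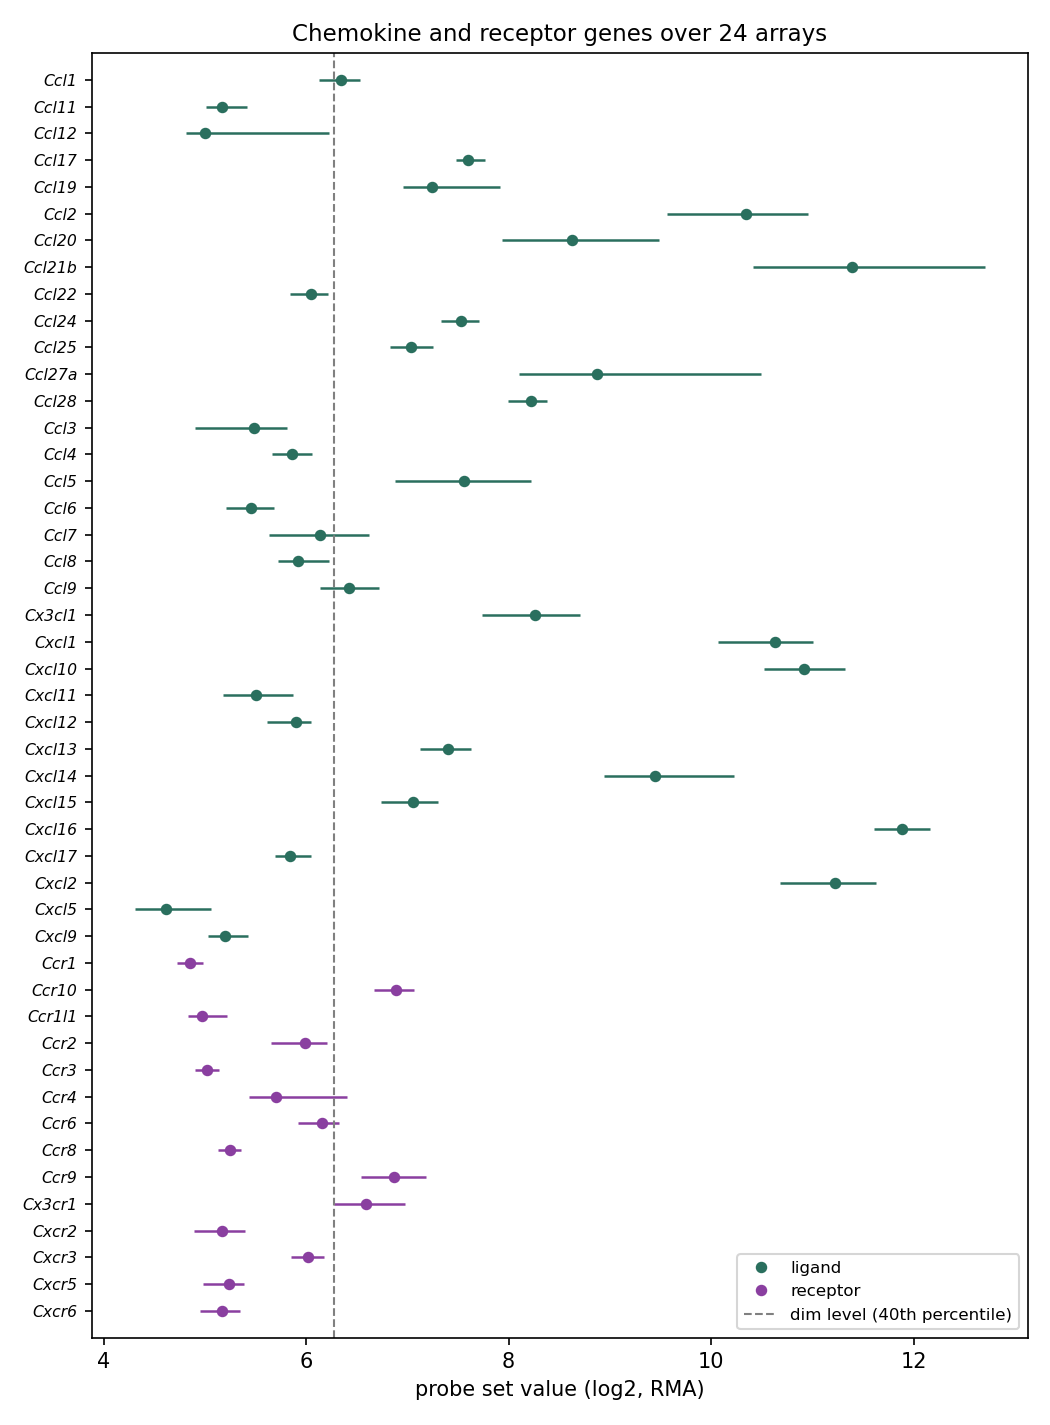
Value of the probe set used for each of the 47 members, on the log2 scale. Points are means and lines the range over all 24 arrays. Ligands are in green and receptors in purple, and the dashed line is the dim level of 6.27. Of the receptors, only Ccr9, Ccr10 and Cx3cr1 have means right of the line.

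Markers of macrophages, neutrophils and lymphocytes, the cells that carry most of these receptors, lay on both sides of the dim level, as did 5253 dim genes (30.7%) among all 17097. Of 11 macrophage and monocyte markers measured, 6 were dim, among them the defining genes Adgre1, Itgam and Ptprc, and 5 were above the level. Of 7 neutrophil markers S100a8, Csf3r, Elane and Ngp were dim and 3 were above it, and of 10 lymphocyte markers Cd3e, Ms4a1, Ncr1 and Cd28 were dim and 6 were above it. Of 9 dendritic and mast cell markers 6 were dim, and of 10 neuron markers 5 were dim.

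Of the 23 tested members, 13 passed the threshold (adjusted p under 0.05, limma with Benjamini-Hochberg adjustment over 11844 genes) in at least 1 of 10 comparisons. Changes below are log2 differences, the first named group minus the second. On the PA-rich diet against the control diet, 3 of 23 members fell and 0 rose with PLKO, where 1.18% of all genes changed, 0.811% lower and 0.371% higher. With shEGR2_40.9, 6 members fell and 0 rose, where 8.95% of all genes changed, 5.22% lower and 3.73% higher. With shEGR2_38.9, 5 fell and 2 rose, where 22.1% of all genes changed, 8.3% lower and 13.8% higher. With shGAL 1 fell and 0 rose, where 1.94% changed, 0.608% lower and 1.33% higher. The EGR2 hairpins, taken as the mean of the pair, differed from PLKO on the control diet in 7 members, 4 higher and 3 lower, where 25.2% of all genes differed, 10.8% higher and 14.5% lower. In the PA-rich groups they differed from PLKO in 1 member, which was lower, with a background of 1.11%, 0.794% higher and 0.321% lower. The shGAL groups differed from PLKO on the control diet in 4 members, 2 in each direction, where 17% of all genes differed, 7.15% higher and 9.84% lower. In the PA-rich groups they differed in 3 members, 2 higher and 1 lower, where 12.4% of all genes differed, 7.6% higher and 4.77% lower. The diet effect itself differed from that with PLKO in 5 members with the EGR2 hairpins, 2 higher and 3 lower, with a background of 9.74%, 5.18% higher and 4.57% lower. With shGAL it differed in 2 members, both higher, with a background of 1.33%, 1.01% higher and 0.321% lower. Where a single EGR2 hairpin is set against PLKO below, 12.1% of all genes passed with shEGR2_40.9 and 30.4% with shEGR2_38.9 on the control diet, 4.02% and 0.625% in the PA-rich groups, and 4.16% and 13.4% for the difference of the diet effect. Any difference among the 8 groups was called for 11 of 23 members, or 47.8%, near the 46.1% of all genes. Without the array that stood apart, 5 members were called for the diet with shEGR2_38.9 and 2 for the diet with shGAL. In the same fit 2 were called for the EGR2 hairpins against PLKO in the PA-rich groups and 8 for their difference of diet effect. The other counts moved by at most 1.5 times. The shares of all genes belong to the fit of all arrays and are not given without that array. Counts without that array, here and below, therefore show only how the calls moved. The comparisons share arrays: each PLKO group serves several of them. The median change of the 23 members lay between -0.09 and 0.06 in all 10 comparisons, against -0.06 to 0.07 for all genes.

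**Figure D2:**
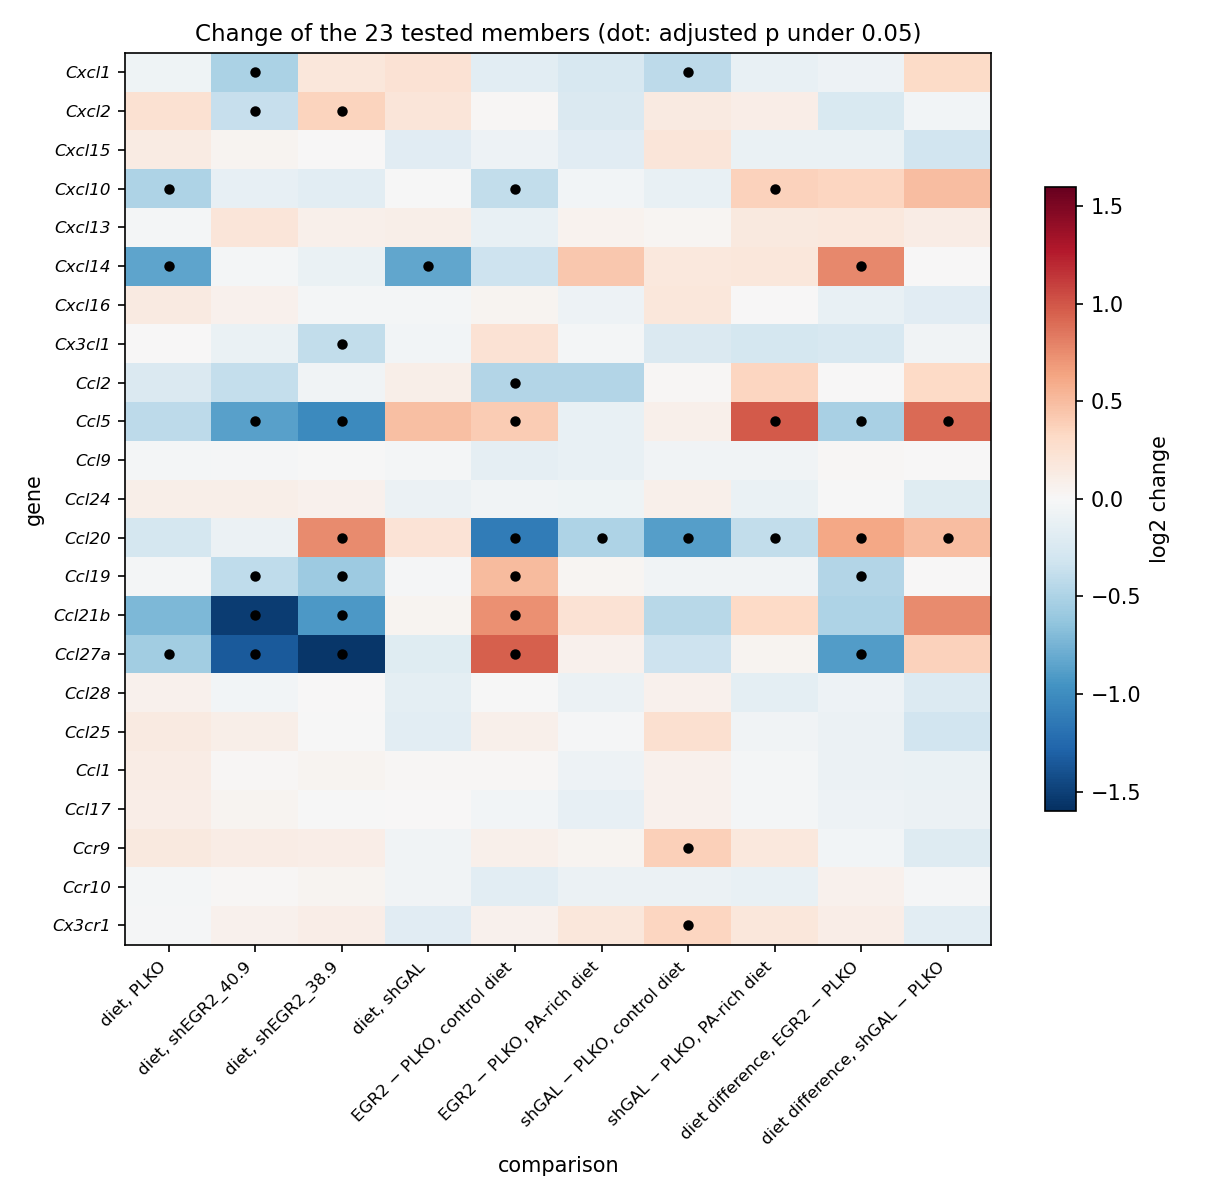
Log2 change of the 23 tested members (rows) in the 10 comparisons (columns), blue for lower and red for higher. A black dot marks an adjusted p under 0.05. Ccl27a, Ccl21b and Ccl19 share blue in the diet comparisons of both EGR2 hairpins and red against PLKO on the control diet, and Ccl20 is blue in all 4 comparisons of a hairpin with PLKO.

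Ccl27a is a ligand of Ccr10 that draws T cells to the epidermis. It and the Ccr7 ligands Ccl21b and Ccl19 were high in the control-diet groups of the EGR2 hairpins and lower in their PA-rich groups. The 3 genes lie near each other on chromosome 4 (GRCm38.p6, RefSeq): Ccl27a at chr4:41769467-41774225, Ccl21b at chr4:42173120-42256825 and Ccl19 at chr4:42754525-42756365. The region holds near-identical copies of Ccl21 and Ccl27, so the probe sets for Ccl21b and Ccl27a may also report copies of these genes. The annotated span of Ccl21b is long for a chemokine gene and its start is uncertain, and no promoter of it is shown. For 35 of the 47 members RefSeq promoter sequence (250 bases before to 50 after an annotated start) was at hand. The promoters of Ccl27a and Ccl19 are shown because these members moved together, 5′ to 3′ on the minus strand, at chr4:41770163-41770462, which is the start nearest the 3′ end of the 3 annotated for Ccl27a, and chr4:42756316-42756615. Capitals mark a match to the AP-1 form TGANTCA in Ccl27a and to the interferon-stimulated response element, searched as GAAA and GAAA with any 2 bases between them, in Ccl19.
Ccl27a: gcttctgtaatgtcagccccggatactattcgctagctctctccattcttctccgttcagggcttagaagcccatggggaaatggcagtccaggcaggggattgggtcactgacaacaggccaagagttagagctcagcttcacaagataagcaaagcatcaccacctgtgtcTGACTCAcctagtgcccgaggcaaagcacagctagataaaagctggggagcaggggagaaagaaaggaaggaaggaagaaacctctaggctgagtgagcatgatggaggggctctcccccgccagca
Ccl19: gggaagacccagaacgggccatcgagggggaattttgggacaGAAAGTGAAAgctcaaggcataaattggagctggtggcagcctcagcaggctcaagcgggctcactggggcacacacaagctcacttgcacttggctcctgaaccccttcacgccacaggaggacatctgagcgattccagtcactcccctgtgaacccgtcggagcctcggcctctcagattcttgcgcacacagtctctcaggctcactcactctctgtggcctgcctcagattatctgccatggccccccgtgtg
On either strand the AP-1 form is held by 7.81% and the interferon form by 3.44% of 32851 promoters of this length, and neither of these 2 promoters shares the other's match.

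Ccl27a had the lowest adjusted p of the 23 members for any difference among the 8 groups (1.6e-10, limma F test). With shEGR2_40.9 it was 8.11, 8.24 and 8.10 on the PA-rich diet, against 9.77, 9.31 and 9.40 on the control diet. With shEGR2_38.9 it was 8.78, 8.73 and 8.70 on the PA-rich diet, against 10.50, 10.36 and 10.04 on the control diet. The diets did not overlap with either hairpin, and Ccl27a fell by 1.34 (SE 0.13, adjusted p = 4.4e-07, limma) with shEGR2_40.9 and fell by 1.56 (SE 0.13, adjusted p = 1.17e-08) with shEGR2_38.9, which is 2.54-fold and 2.95-fold. Without the array that stood apart, the change with shEGR2_38.9 was -1.69 (adjusted p = 1.48e-08). Within scan batches the falls ran from 1.07 to 1.66 with shEGR2_40.9 and from 1.33 to 1.72 with shEGR2_38.9. With PLKO the values were 8.52, 8.43 and 8.18 on the PA-rich diet, against 9.02, 9.09 and 8.69 on the control diet, a smaller fall of 0.56 (SE 0.13, adjusted p = 0.027). This call was lost without PLKO control-diet replicate 1 (adjusted p = 0.105) or 2 (0.133) or PA-rich replicate 2 (0.0605) or 3 (0.151), or with only these 6 arrays in the fit (0.113). With shGAL the values were 8.50, 8.37 and 8.38 on the PA-rich diet, against 8.55, 8.76 and 8.50 on the control diet, and the change of -0.19 did not pass (adjusted p = 0.492).

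Ccl27a on the control diet was 0.96 higher with the EGR2 hairpins than with PLKO (SE 0.11, adjusted p = 8.76e-07), by 0.56 with shEGR2_40.9 alone and by 1.36 with shEGR2_38.9 alone. With PA-rich feeding the difference of 0.07 did not pass (adjusted p = 0.87). Its diet effect with the EGR2 hairpins was accordingly lower than with PLKO, by -0.89 (SE 0.15, adjusted p = 0.000587). Without the array that stood apart these differences from PLKO were 1.03 in the control-diet groups and -0.96 for the diet effect. Of 4 probe sets of Ccl27a, a second moved in the same direction (-0.78 and -1.03 with the diet in shEGR2_40.9 and shEGR2_38.9), while the other two, which had lower signals near 6.4, gave 0.03 and 0.07 with shEGR2_40.9 and -0.20 and 0.04 with shEGR2_38.9. With the mean of all probe sets, the sizes were smaller. The diet then changed Ccl27a by -0.51 under shEGR2_40.9 (adjusted p = 0.000369) and by -0.69 under shEGR2_38.9 (adjusted p = 3.5e-06), and the change of -0.19 with PLKO did not pass (adjusted p = 0.36). The EGR2 hairpins then differed from PLKO by 0.40 in the control-diet groups (adjusted p = 0.000361) and by -0.41 in the diet effect (0.0122).

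Ccl21b with shEGR2_40.9 was 10.90, 10.79 and 10.41 on the PA-rich diet, against 12.52, 12.04 and 12.07 on the control diet. It fell there by 1.51 (SE 0.23, adjusted p = 0.000132), or 2.85-fold, and by 1.25 to 1.66 within scan batches. With shEGR2_38.9 it was 11.52, 11.41 and 11.21 on the PA-rich diet, against 12.69, 12.71 and 11.50 on the control diet, where the low value belonged to the array that stood apart and lay within the range of the PA-rich arrays. The fall was 0.92 with that array (SE 0.23, adjusted p = 0.00641) and Ccl21b fell by 1.32 without it (adjusted p = 2.21e-05), and with only these 6 arrays in the fit it was not called (adjusted p = 0.0873). With PLKO the values were 10.98, 10.80 and 10.63, against 11.58, 11.81 and 11.17 on the control diet, a change of -0.72 that did not pass (adjusted p = 0.179) but did with scan batch as a block (adjusted p = 0.0399). With shGAL the diets overlapped, and the change was 0.05. Ccl21b on the control diet was 0.73 higher with the EGR2 hairpins than with PLKO (SE 0.20, adjusted p = 0.0101), and 0.93 higher without the array that stood apart. That call was lost without PLKO control-diet replicate 3 (0.56, adjusted p = 0.0954) and with only the arrays compared (adjusted p = 0.0723). With shEGR2_40.9 alone the difference was 0.69 and did not pass (adjusted p = 0.0562), and with shEGR2_38.9 alone it was 0.78 (adjusted p = 0.0148). The difference of its diet effect between the EGR2 hairpins and PLKO was -0.50 (adjusted p = 0.326). This value includes the array that stood apart, which was low for Ccl21b in its group.

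Ccl19 changed less. With shEGR2_40.9 it was 7.09, 7.11 and 6.96 on the PA-rich diet, against 7.58, 7.24 and 7.56 on the control diet, a fall of 0.41 (SE 0.09, adjusted p = 0.00382). With shEGR2_38.9 it was 7.39, 7.17 and 7.15 on the PA-rich diet, against 7.91, 7.74 and 7.81 on the control diet, a fall of 0.58 (SE 0.09, adjusted p = 3.77e-05), and no array of one diet reached the other in either hairpin. The 12 arrays of shGAL and PLKO lay between 7.01 and 7.21, and the diet changes there were -0.02 and -0.03. Ccl19 on the control diet was 0.51 higher with the EGR2 hairpins than with PLKO (SE 0.08, adjusted p = 3.75e-05). Its diet effect differed from that with PLKO by -0.47 (SE 0.11, adjusted p = 0.00654), by -0.38 with shEGR2_40.9 alone (adjusted p = 0.0915) and by -0.56 with shEGR2_38.9 alone (adjusted p = 0.0041). With the array that stood apart left out, Ccl19 fell by 0.59 with shEGR2_38.9, was 0.51 higher with the EGR2 hairpins than PLKO in the control-diet groups, and differed in diet effect by -0.47.

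Endothelial markers moved with these 3 ligands. All 10 of the listed endothelial genes, the lymphatic genes Prox1, Flt4 and Lyve1 among them, fell on the PA-rich diet with both EGR2 hairpins, with median changes of -1.42 with shEGR2_40.9 and -1.63 with shEGR2_38.9 (medians of all genes 0.03 and 0.07). All 10 were higher with the EGR2 hairpins than with PLKO on the control diet, with a median of 1.63. With PLKO and with shGAL 0 of 10 passed in either direction between the diets. The mean of the list was 8.17 to 8.47 per array with shEGR2_40.9 on the PA-rich diet, against 9.71 to 10.07 on the control diet, and 8.67 to 8.84 with shEGR2_38.9 on the PA-rich diet, against 10.04 to 10.59 on the control diet. It was 8.17 to 8.63 with shGAL on the PA-rich diet, against 7.92 to 8.63 on the control diet, and 8.12 to 8.42 with PLKO on the PA-rich diet, against 8.39 to 8.85 on the control diet. In the array that stood apart, the list averaged 10.04, the lowest of its group, as did Ccl27a and Ccl21b. Of 5 tested macrophage and monocyte markers 2 fell with shEGR2_40.9 and 3 with shEGR2_38.9, with median changes of 0.07 and -0.50, and 3 were higher with the EGR2 hairpins than with PLKO in the control-diet groups, with a median of 0.53. These were Mrc1, the mannose receptor gene, which lymphatic endothelium also expresses (-2.35, -2.26 and 1.87 in these comparisons), Cd14, the lipopolysaccharide co-receptor (-0.88, -0.73 and 0.53), and Cd68, a lysosomal gene, which passed in the last 2 (-0.50 and 0.55). The counts were the same without the array that stood apart. Of all genes, 5.22% fell with shEGR2_40.9 and 8.3% with shEGR2_38.9 in the fit of all arrays. On the control diet 10.8% were higher with the EGR2 hairpins than with PLKO. Without that array all 10 endothelial genes still fell with shEGR2_38.9, with a median of -1.84. Of 4 tested fibroblast markers 2 fell with each EGR2 hairpin and 1 rose with shEGR2_38.9, and of 6 tested pericyte and smooth muscle markers 2 fell with shEGR2_38.9. With shEGR2_38.9 and without that array, 1 fibroblast marker and 3 pericyte and smooth muscle markers fell. In the control-diet groups of the same fit, 3 fibroblast markers were higher and 1 lower with the EGR2 hairpins than with PLKO, with a median of 0.65. Of the pericyte and smooth muscle markers, 3 were higher and 0 lower there, with a median of 0.39. The part of these cells in the result was not tested, and in bulk RNA fewer cells of a type and less RNA per cell cannot be told apart.

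**Figure D3:**
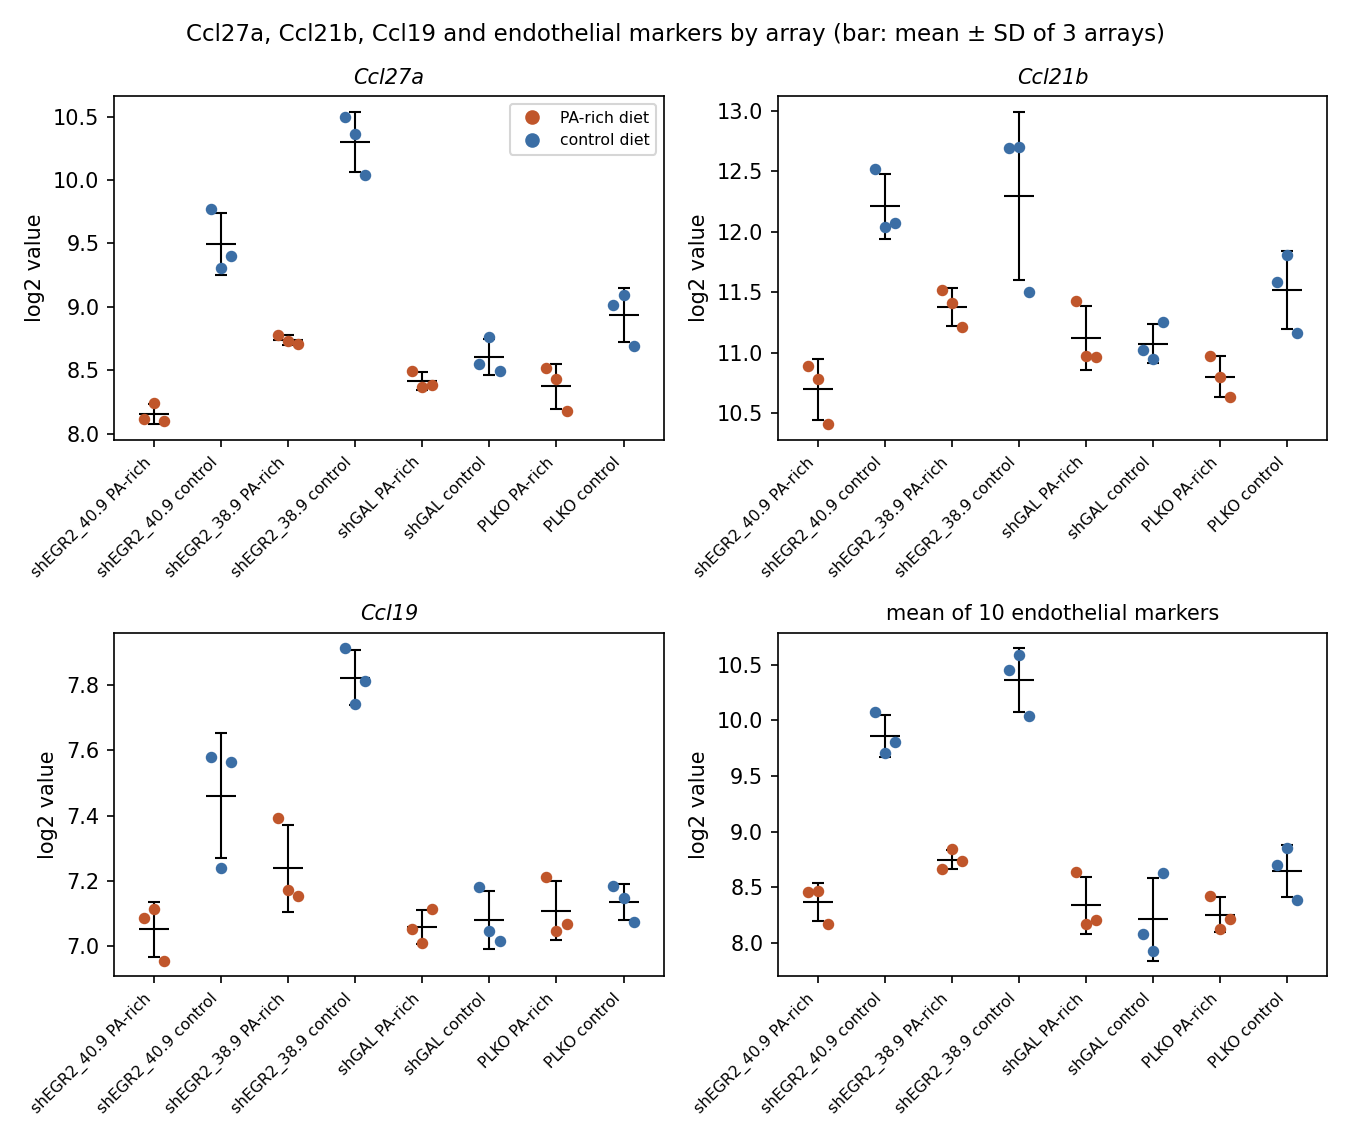
Log2 values of Ccl27a, Ccl21b and Ccl19 and the mean of 10 endothelial markers in each array, by hairpin and diet. Points are arrays, bars the mean ± SD of 3 arrays. The 2 control-diet groups of the EGR2 hairpins have the highest means in all 4 panels. For Ccl21b the third array of shEGR2_38.9 on the control diet is the low point of its own group.

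Ccl20, which attracts Ccr6-bearing dendritic cells and lymphocytes to epithelia, lay below its PLKO level with all silencing hairpins. On the PA-rich diet it was 8.39, 8.25 and 8.38 with shEGR2_40.9, 8.84, 8.67 and 8.79 with shEGR2_38.9 and 8.58, 8.78 and 8.62 with shGAL, against 8.99, 9.04 and 9.12 with PLKO. On the control diet it was 8.42, 8.43 and 8.45 with shEGR2_40.9, 8.07, 8.01 and 7.94 with shEGR2_38.9 and 8.52, 8.48 and 8.33 with shGAL, against 9.27, 9.24 and 9.49 with PLKO. On neither diet did an array of a silencing hairpin reach the PLKO range. The difference of the EGR2 hairpins from PLKO was -1.11 on the control diet (SE 0.07, adjusted p = 2.46e-10), or 2.16-fold, and -1.10 without the array that stood apart. With the PA-rich diet it was -0.50 (SE 0.07, adjusted p = 0.000585). There, shEGR2_40.9 alone gave -0.71, whereas shEGR2_38.9 alone gave -0.29 and did not pass (adjusted p = 0.113). With shGAL the difference was -0.89 on the control diet (SE 0.08, adjusted p = 1.16e-07) and -0.39 with the PA-rich diet (SE 0.08, adjusted p = 0.0017). In the single scan batch that each hairpin shared with PLKO the control-diet differences were -0.85 with shEGR2_40.9, -1.23 with shEGR2_38.9 and -1.16 with shGAL. The PA-rich ones were -0.60, -0.37 and -0.51 in that order.

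The diet effect on Ccl20 was not the same with all hairpins. Ccl20 rose by 0.76 with shEGR2_38.9 (SE 0.08, adjusted p = 2.29e-07), by 0.73 without the array that stood apart, while the changes were -0.09 with shEGR2_40.9 (adjusted p = 0.583), 0.21 with shGAL (adjusted p = 0.17) and -0.28 with PLKO (adjusted p = 0.0944). Against PLKO, the diet effect was 0.62 higher with the EGR2 hairpins (SE 0.10, adjusted p = 0.000203), but 0.19 with shEGR2_40.9 alone (adjusted p = 0.432) and 1.04 with shEGR2_38.9 alone. It was 0.49 higher with shGAL (SE 0.11, adjusted p = 0.0249), a call lost without PLKO control-diet replicate 3 (adjusted p = 0.0755), PLKO PA-rich replicate 1 (0.0848) or 2 (0.0528) or shGAL PA-rich replicate 2 (0.0784). That call was also lost with only the arrays compared (adjusted p = 0.0798) and with renewed quantile normalization (0.0689).

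The neutrophil attractants Cxcl1 and Cxcl2, neighbours on chromosome 5 (chr5:90891245-90893121 and chr5:90903899-90905938), and Ccl20 on chromosome 1 (chr1:83116766-83119167) were the 3 members whose diet effect differed between the EGR2 hairpins. That comparison was added after their values were seen, and 5.57% of all genes passed in it, 3.77% higher and 1.81% lower. Their RefSeq promoters on the plus strand of GRCm38.p6, at chr5:90890995-90891294, chr5:90903649-90903948 and chr1:83116516-83116815, are shown because each holds the NF-kB form, searched on both strands as GGG and TTTCC with any 2 bases between them and set in capitals. NF-kB is a transcription factor that inflammatory cytokines activate.
Cxcl1: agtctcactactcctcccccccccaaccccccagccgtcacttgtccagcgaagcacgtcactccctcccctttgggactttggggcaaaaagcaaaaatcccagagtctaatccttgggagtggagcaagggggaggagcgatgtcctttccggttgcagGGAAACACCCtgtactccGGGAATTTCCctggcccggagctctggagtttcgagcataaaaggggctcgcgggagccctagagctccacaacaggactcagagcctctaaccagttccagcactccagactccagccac
Cxcl2: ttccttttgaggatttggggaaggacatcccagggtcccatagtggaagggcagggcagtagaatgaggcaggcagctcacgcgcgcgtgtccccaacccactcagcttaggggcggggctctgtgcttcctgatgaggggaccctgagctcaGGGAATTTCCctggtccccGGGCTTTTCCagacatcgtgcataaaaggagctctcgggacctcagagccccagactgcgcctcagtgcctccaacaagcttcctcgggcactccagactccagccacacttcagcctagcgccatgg
Ccl20: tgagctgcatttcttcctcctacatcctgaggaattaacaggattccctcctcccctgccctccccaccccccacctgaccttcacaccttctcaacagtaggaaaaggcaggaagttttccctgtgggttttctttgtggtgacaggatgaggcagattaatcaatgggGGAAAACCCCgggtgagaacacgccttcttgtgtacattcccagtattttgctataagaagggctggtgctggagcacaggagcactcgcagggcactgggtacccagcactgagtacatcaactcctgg
This form was found in 1.63% of the 32851 promoters and in 5 of the 39 promoters of members. Besides the promoters shown, these were those of Ccl9, which passed in no comparison, and Ccr3, which was dim. A match describes the letters of the window and is no evidence of binding.

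Cxcl2 with shEGR2_40.9 was 10.70, 10.85 and 10.69 on the PA-rich diet, against 10.99, 11.19 and 11.16 on the control diet, and the diets did not overlap. It fell by 0.37 (SE 0.10, adjusted p = 0.0166). With shEGR2_38.9 it was 11.59, 11.38 and 11.63 on the PA-rich diet, against 11.39, 11.22 and 10.90 on the control diet, where the lowest value belonged to the array that stood apart. It rose there by 0.36 (SE 0.10, adjusted p = 0.00861), and the call was lost without that array (0.23, adjusted p = 0.0639) and without PA-rich replicate 3 (0.31, adjusted p = 0.0532). This call was also lost with only the arrays compared (adjusted p = 0.137). With shEGR2_40.9 the call was lost without control-diet replicate 2 (adjusted p = 0.0716) or 3 (0.0665) or PA-rich replicate 1 (0.0709) or 3 (0.0779). The diet effects of shEGR2_38.9 and shEGR2_40.9 differed by 0.73 (SE 0.14, adjusted p = 0.00217), and by 0.60 without the array that stood apart (adjusted p = 0.00278). For Ccl20 the difference was 0.85 (SE 0.11, adjusted p = 4.64e-05), and 0.82 without that array. With shGAL and with PLKO the changes of Cxcl2 were 0.20 and 0.24 (adjusted p = 0.313 and 0.328).

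Cxcl1 with shEGR2_40.9 was 10.36, 10.27 and 10.25 on the PA-rich diet, against 10.78, 10.92 and 10.68 on the control diet, again without overlap. It fell by 0.50 (SE 0.13, adjusted p = 0.0144), a call lost without control-diet replicate 2 (adjusted p = 0.0703) or PA-rich replicate 2 (0.0526) or 3 (0.0606). With shEGR2_38.9 it was 10.73, 10.76 and 10.73 on the PA-rich diet, against 10.66, 10.74 and 10.26 on the control diet, with the low value in the array that stood apart, and the change of 0.18 did not pass (adjusted p = 0.321). The difference of 0.69 between these diet effects (SE 0.18, adjusted p = 0.0257) was not called without that array (0.54, adjusted p = 0.0656). It was also lost without shEGR2_38.9 PA-rich replicate 2 (adjusted p = 0.0605) or 3 (0.0505), shEGR2_40.9 PA-rich replicate 2 (0.0577) or 3 (0.0645) or shEGR2_40.9 control-diet replicate 2 (0.0774). Cxcl1 on the control diet was 10.47, 10.07 and 10.72 with shGAL, against 10.81, 10.71 and 11.003 with PLKO. The ranges overlapped, and the difference of -0.42 (SE 0.13, adjusted p = 0.0257) became -0.25 without shGAL control-diet replicate 2 (adjusted p = 0.191) and -0.34 without PLKO control-diet replicate 3 (adjusted p = 0.126). With only the arrays compared this difference was not called (adjusted p = 0.115). Cxcl15, the third tested ligand of this class, passed in no comparison.

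Ccl2, the monocyte attractant, was lowest with shEGR2_40.9. On the PA-rich diet it was 9.56, 9.66 and 9.58 with shEGR2_40.9 and 10.38, 10.34 and 10.19 with shEGR2_38.9, against 10.49, 10.29 and 10.46 with PLKO. On the control diet it was 10.25, 9.98 and 9.73 with shEGR2_40.9 and 10.54, 10.60 and 9.94 with shEGR2_38.9, the last from the array that stood apart, against 10.61, 10.65 and 10.67 with PLKO. In the control-diet groups the difference of the EGR2 hairpins from PLKO was -0.47 (SE 0.12, adjusted p = 0.0046), and -0.37 without that array (adjusted p = 0.00442). With only the arrays compared this difference was not called (adjusted p = 0.0578). With shEGR2_40.9 alone the difference was -0.66 (adjusted p = 0.0018) and with shEGR2_38.9 alone -0.28 (adjusted p = 0.113). In the PA-rich groups the mean of the hairpins differed by -0.46 (adjusted p = 0.055), shEGR2_40.9 alone by -0.81 (adjusted p = 0.000707) and shEGR2_38.9 alone by -0.11 (adjusted p = 0.878). The diet change with shEGR2_40.9, -0.39, passed with scan batch as a block (adjusted p = 0.0329) and not without it (adjusted p = 0.0802). With shGAL Ccl2 lay between 10.62 and 10.96 on both diets together, and no comparison passed.

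**Figure D4:**
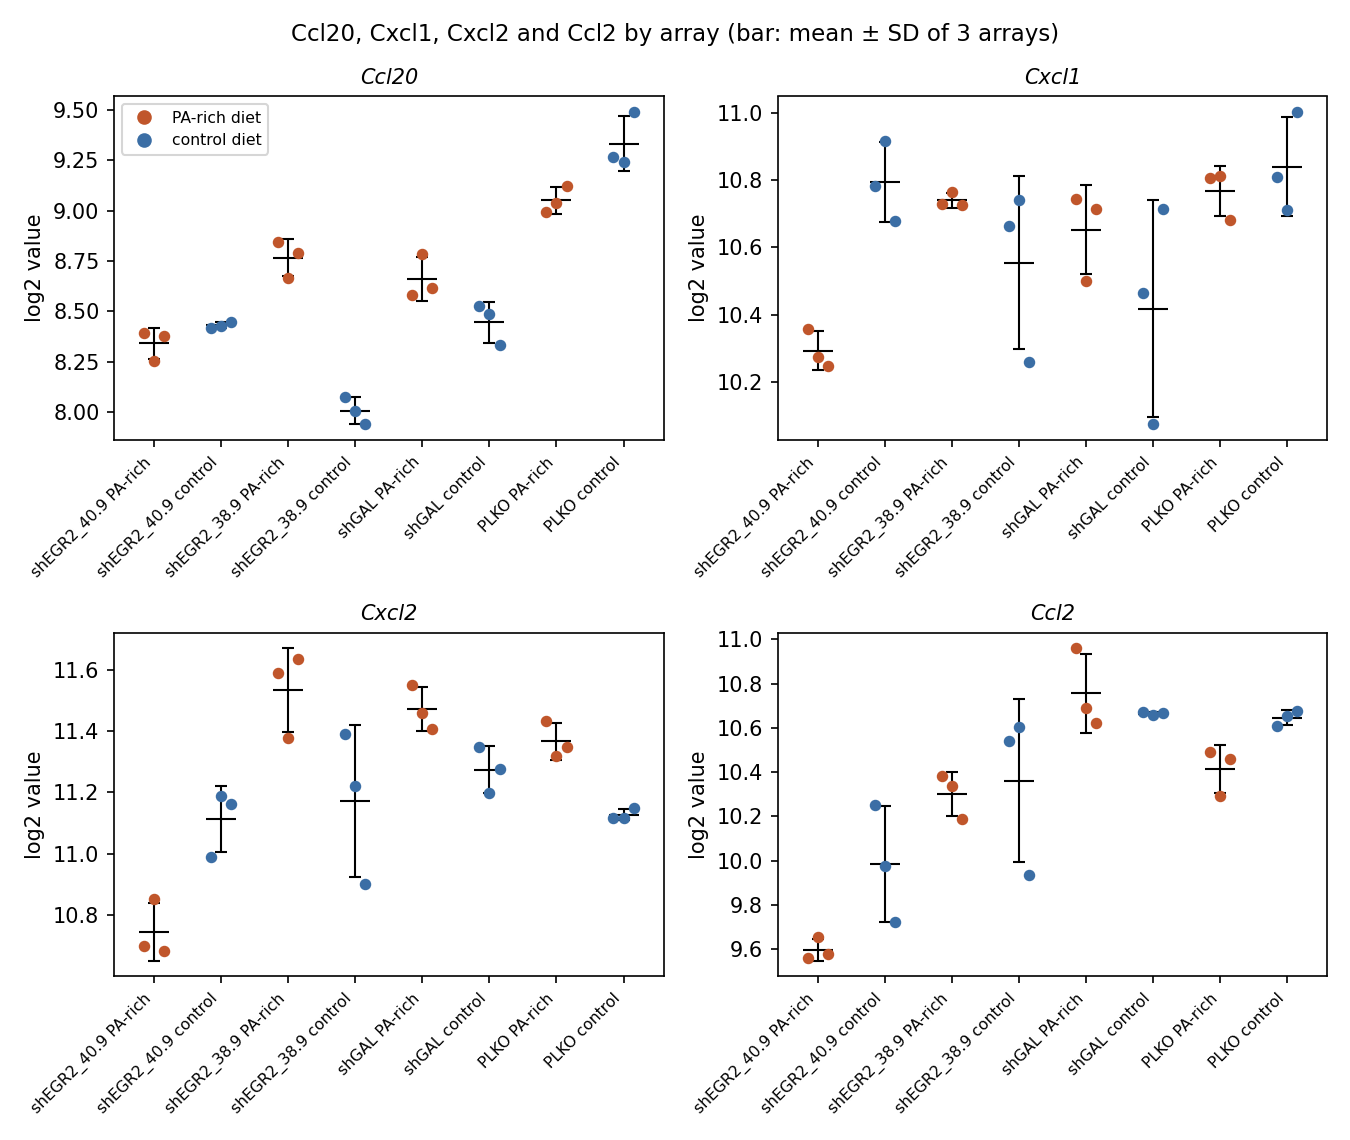
Log2 values of Ccl20, Cxcl1, Cxcl2 and Ccl2 in each array, by hairpin and diet. Points are arrays, bars the mean ± SD of 3 arrays. Ccl20 is highest in the 2 PLKO groups, and the PA-rich arrays of shEGR2_40.9 are the lowest group for Cxcl1, Cxcl2 and Ccl2.

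Ccl5 (RANTES), which attracts monocytes and memory T cells and is induced by interferons and NF-kB, fell with the diet under both EGR2 hairpins. With shEGR2_40.9 it was 7.14, 6.97 and 6.88 on the PA-rich diet, against 7.86, 7.98 and 7.76 on the control diet, and with shEGR2_38.9 it was 7.06, 7.03 and 7.07, against 8.18, 7.97 and 8.07. The diets were separate in both, and the falls were 0.87 (SE 0.13, adjusted p = 9.71e-05) with shEGR2_40.9 and 1.02 (SE 0.13, adjusted p = 4.32e-06) with shEGR2_38.9. With shGAL it was 8.09, 8.07 and 8.22 on the PA-rich diet, against 7.42, 7.85 and 7.67 on the control diet, a change of 0.48 that did not pass (adjusted p = 0.0571). With PLKO it was 6.97, 6.93 and 7.54 on the PA-rich diet, against 7.57, 7.75 and 7.37 on the control diet, a change of -0.42 that did not pass (adjusted p = 0.144). The shGAL and PLKO groups thus overlapped on the control diet and were apart on the PA-rich diet, where Ccl5 was 0.98 higher with shGAL (SE 0.13, adjusted p = 1.73e-05), and the diet effects differed by 0.90 (SE 0.18, adjusted p = 0.0139). With only the arrays compared this difference was not called (adjusted p = 0.0739).

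Ccl5 on the control diet was 0.41 higher with the EGR2 hairpins than with PLKO (SE 0.11, adjusted p = 0.0106), a call lost without PLKO control-diet replicate 3 (0.31, adjusted p = 0.0964). The difference was 0.30 with shEGR2_40.9 alone, which did not pass (adjusted p = 0.141), and 0.51 with shEGR2_38.9 alone (adjusted p = 0.0048). Its diet effect differed from that with PLKO by -0.52 (SE 0.16, adjusted p = 0.0385), which was not called with scan batch as a block (adjusted p = 0.0509), without PLKO control-diet replicate 3 (-0.43, adjusted p = 0.14) or without PLKO PA-rich replicate 3 (-0.33, adjusted p = 0.158), and was lost at adjusted p between 0.0526 and 0.0655 without any 1 of 9 other arrays. These were shEGR2_40.9 PA-rich replicates 2 and 3 and control-diet replicates 1 and 2, the 3 PA-rich replicates and control-diet replicate 1 of shEGR2_38.9, and PLKO control-diet replicate 1. The call was also lost with no filter on dim probe sets (adjusted p = 0.0503). The difference of diet effect was -0.45 with shEGR2_40.9 alone, which did not pass (adjusted p = 0.203), and -0.60 with shEGR2_38.9 alone (adjusted p = 0.033). S100a9, a neutrophil and stressed-keratinocyte gene, was 0.78 higher with shGAL than with PLKO on the control diet and 1.30 higher in the PA-rich groups. The other 2 tested neutrophil markers did not pass. The mean of the 7 neutrophil markers was 6.45 to 6.59 per array with shGAL on the PA-rich diet, against 5.98 to 6.14 with PLKO. This mean includes S100a9 and the dim genes S100a8, Csf3r, Elane and Ngp. For the 3 tested markers the median difference there was -0.04 without the array that stood apart. The part of neutrophils in the result for Ccl5 was not tested.

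Cxcl10, the interferon-inducible ligand of Cxcr3, with PLKO was 10.71, 10.63 and 10.90 on the PA-rich diet, against 11.23, 11.18 and 11.32 on the control diet. The diets did not overlap, and Cxcl10 fell by 0.50 (SE 0.11, adjusted p = 0.023), by 0.42 to 0.55 within scan batches. The call was lost without PLKO control-diet replicate 1 (adjusted p = 0.0608) or 3 (0.0994) or PA-rich replicate 1 (0.106) or 2 (0.112). With the other hairpins the diet changes were -0.13 with shEGR2_40.9, -0.16 with shEGR2_38.9 and -0.01 with shGAL, none past the threshold. In the control-diet groups it was 10.60, 10.90 and 10.62 with shEGR2_40.9 and 10.98, 10.79 and 11.24 with shEGR2_38.9, the last from the array that stood apart and the only one within the PLKO range. Their difference from PLKO was -0.39 (SE 0.09, adjusted p = 0.00398), or -0.45 without that array (adjusted p = 0.00059). With shEGR2_40.9 alone it was -0.53 (adjusted p = 0.00172), and with shEGR2_38.9 alone -0.24, which did not pass (adjusted p = 0.0955). Cxcl10 on the PA-rich diet was 11.13, 11.17 and 11.03 with shGAL and so 0.37 higher than with PLKO (SE 0.11, adjusted p = 0.0286). That call was lost with scan batch as a block (0.25, adjusted p = 0.181) and without PLKO PA-rich replicate 1 (adjusted p = 0.0892) or 2 (0.126) or shGAL PA-rich replicate 1 (0.0793) or 2 (0.101). Renewed quantile normalization also lost it (adjusted p = 0.061). The diet effects themselves differed from that with PLKO by 0.35 with the EGR2 hairpins and 0.49 with shGAL, neither past the threshold (adjusted p = 0.103 and 0.126). Of the other ligands of Cxcr3, Cxcl9 and Cxcl11 were dim.

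Cxcl14, a ligand made by resting epithelium, fell with the diet under PLKO and shGAL. With shGAL it was 9.20, 9.20 and 9.003 on the PA-rich diet, against 10.02, 10.22 and 9.66 on the control diet. With PLKO it was 8.95, 8.94 and 8.97 on the PA-rich diet, against 9.62, 9.90 and 9.85 on the control diet. Each pair of groups was separate, and the falls were 0.83 (SE 0.14, adjusted p = 0.00308) with shGAL and 0.84 (SE 0.14, adjusted p = 0.0032) with PLKO, with 0.66 to 1.02 and 0.67 to 0.96 within scan batches. With the EGR2 hairpins the diets overlapped: shEGR2_40.9 gave 9.64, 9.38 and 9.29 on the PA-rich diet, against 9.29, 9.68 and 9.44 on the control diet, and shEGR2_38.9 gave 9.27, 9.32 and 9.45, against 9.60, 9.08 and 9.66. The diet effect with the EGR2 hairpins was 0.77 higher than with PLKO (SE 0.17, adjusted p = 0.00585), by 0.80 with shEGR2_40.9 alone and 0.74 with shEGR2_38.9 alone, and the difference was 0.82 without the array that stood apart. Cxcl14 on the control diet differed between the EGR2 hairpins and PLKO by -0.33 (adjusted p = 0.0507), and by -0.47 with scan batch as a block (adjusted p = 0.0181). The second probe set of Cxcl14 gave -0.43 with shGAL and -0.52 with PLKO, and -0.06 and 0.17 with shEGR2_40.9 and shEGR2_38.9.

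Cx3cl1 (fractalkine), a membrane-bound ligand of endothelium and neurons, fell with the diet under shEGR2_38.9. It was 8.19, 8.08 and 8.22 on the PA-rich diet, against 8.68, 8.27 and 8.71 on the control diet, without overlap. The fall of 0.39 (SE 0.11, adjusted p = 0.0158) was 0.31 without the array that stood apart (adjusted p = 0.083) and was also lost without control-diet replicate 1 (adjusted p = 0.0603) or PA-rich replicate 2 (0.0703). With only the arrays compared it was not called (adjusted p = 0.0935). The second probe set of Cx3cl1 gave -0.06 there. Cxcl16, a transmembrane ligand of Cxcr6, had group means of 11.80 to 11.99 and passed in no comparison.

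**Figure D5:**
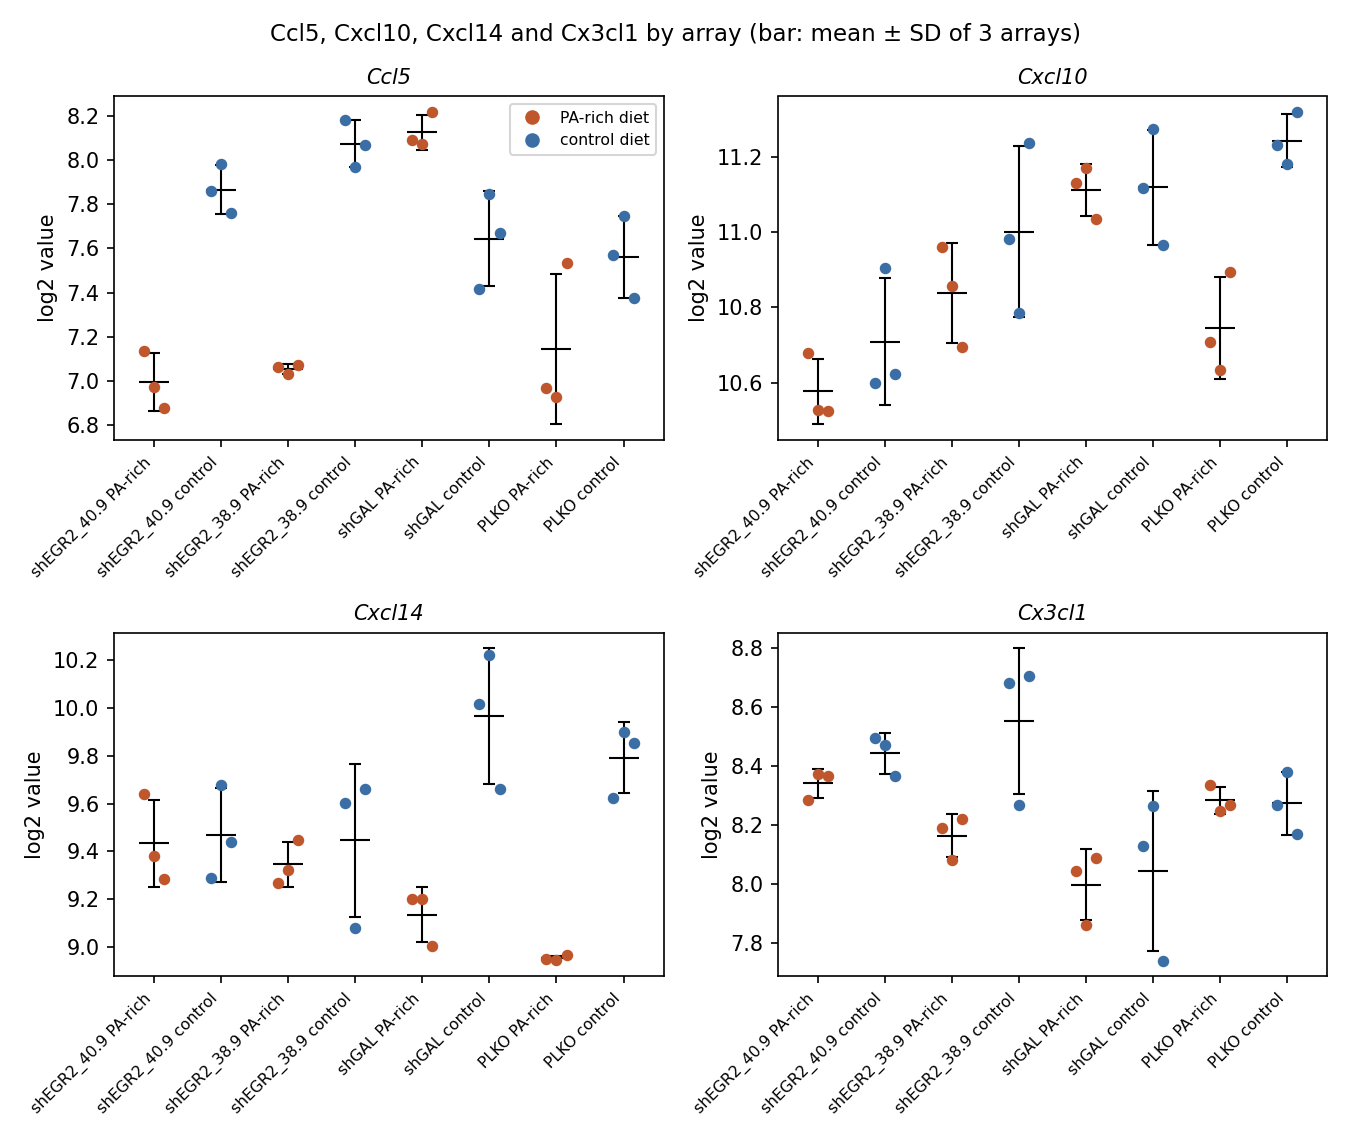
Log2 values of Ccl5, Cxcl10, Cxcl14 and Cx3cl1 in each array, by hairpin and diet. Points are arrays, bars the mean ± SD of 3 arrays. Ccl5 is low in the PA-rich groups of both EGR2 hairpins and in 2 of 3 such arrays of PLKO and high in the PA-rich group of shGAL, and Cxcl14 is lower on the PA-rich diet with shGAL and PLKO.

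Of the 3 receptors above the dim level, Ccr9, the gut-homing receptor of Ccl25, and Cx3cr1, the fractalkine receptor of monocytes and microglia, were higher with shGAL on the control diet. Ccr9 was 7.19, 7.10 and 6.92 with shGAL, against 6.64, 6.54 and 6.89 with PLKO. The ranges were separate by a small margin, and the difference was 0.38 (SE 0.11, adjusted p = 0.0201). Cx3cr1 was 6.70, 6.77 and 6.98 with shGAL, against 6.47, 6.27 and 6.68 with PLKO, likewise apart by a small margin, with a difference of 0.34 (SE 0.11, adjusted p = 0.041). Neither passed with scan batch as a block (0.32, adjusted p = 0.093, and 0.28, adjusted p = 0.0642) or with the mean of all probe sets of the gene (0.13, adjusted p = 0.119, and 0.19, adjusted p = 0.08). With only the arrays compared neither was called (adjusted p = 0.0642 for Ccr9 and 0.102 for Cx3cr1). The call of Cx3cr1 was also lost with no filter on dim probe sets (adjusted p = 0.0529) and with array weights (0.098). A second probe set above the dim level gave 0.01 for Ccr9. For Ccr9 the call was lost without shGAL control-diet replicate 1 (adjusted p = 0.0961) or 2 (0.0613) or PLKO control-diet replicate 1 (0.0625) or 2 (0.109), and for Cx3cr1 without shGAL control-diet replicate 2 (0.0681) or 3 (0.16) or PLKO control-diet replicate 1 (0.0831) or 2 (0.212). Ccl25, the ligand of Ccr9, differed by 0.25 between the same groups (adjusted p = 0.066). Ccr10, the receptor of Ccl27a and Ccl28, had group means of 6.82 to 6.99 and passed in no comparison, nor did Ccl28, with group means of 8.13 to 8.29.

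The 10 tested members with no call were Ccl1, Ccl9, Ccl17, Ccl24, Ccl25, Ccl28, Cxcl13, Cxcl15, Cxcl16 and Ccr10. Their changes in the 10 comparisons lay between -0.31 and 0.25, with a lowest adjusted p of 0.066.

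Among related genes outside the family, Ackr2, an atypical receptor of lymphatic endothelium that scavenges inflammatory CC ligands, fell by 1.77 on the PA-rich diet with shEGR2_40.9 (SE 0.25, adjusted p = 5.37e-05) and by 1.62 with shEGR2_38.9 (SE 0.25, adjusted p = 4.97e-05). On the control diet it was 1.48 higher with the EGR2 hairpins than with PLKO (SE 0.22, adjusted p = 2.69e-05). When the array that stood apart was left out, Ackr2 fell by 1.99 with shEGR2_38.9 and was 1.66 higher in the control-diet groups. In the list of other chemokines and atypical receptors, 5 of 10 genes were tested: with the diet 1 fell with shEGR2_40.9 and 2 with shEGR2_38.9, and in the control-diet groups 3 were higher with the EGR2 hairpins than with PLKO. The shares of all genes in these comparisons were 5.22%, 8.3% and 10.8% in that order. Ccrl2, which holds chemerin at the surface of endothelial and myeloid cells, fell by 1.22 with shEGR2_38.9 and rose by 0.82 with shGAL. Without that array Ccrl2 fell by 1.21 with shEGR2_38.9, and the counts given for this list were the same.

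Of the cytokines and transcription factors that induce chemokines, 15 of 19 were tested. With shEGR2_38.9, 6 rose with the diet and 1 fell, the rises including Il33, an alarmin of epithelium, by 1.70 (SE 0.16, adjusted p = 4.86e-08) and Tnf by 0.51 (SE 0.10, adjusted p = 0.000453). The median change of the list was 0.21 there, against 0.07 for all genes, of which 13.8% rose and 8.3% fell. Without the array that stood apart, 3 rose and 1 fell, with a median of 0.13, Il33 rose by 1.66 and Tnf rose by 0.41. With shEGR2_40.9 1 fell and 0 rose, where 5.22% of all genes fell and 3.73% rose. In the control-diet groups 5 were lower and 1 higher with the EGR2 hairpins than with PLKO, Il33 by -1.41 (adjusted p = 8.13e-08) and Tnf by -0.35 (adjusted p = 0.00358) among the lower, and without that array 5 were lower and 2 higher, Il33 by -1.39 and Tnf by -0.30. Of all genes, 14.5% were lower and 10.8% higher with the EGR2 hairpins there in the fit of all arrays. The part of the listed genes in the members' values was not tested. In the PA-rich groups 3 of the list were higher with shGAL than with PLKO, and Il33 was higher by 1.97 (adjusted p = 1.79e-08). Of all genes, 7.6% were higher and 4.77% lower there. Without the array that stood apart, 3 of the list were higher and 2 lower in that comparison, with a median change of -0.01. On the control diet the same fit gave 3 higher and 2 lower with shGAL than with PLKO, with a median of 0.06. In the fit of all arrays, 7.15% of all genes were higher and 9.84% lower there. Il17a, Ifng, Il6 and Csf3 were dim over all arrays. Il6, singled out after its values were seen, nevertheless had group means of 7.20 with shEGR2_40.9 and 6.43 with shEGR2_38.9 on the control diet, against 5.35 with PLKO, and was not tested.

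Of the genes of chemokine receptor signalling, 17 of 20 were tested, and on the PA-rich diet 2 fell with shEGR2_40.9 and 4 fell and 3 rose with shEGR2_38.9. Of all genes, 5.22% fell with shEGR2_40.9, and 8.3% fell and 13.8% rose with shEGR2_38.9. Without the array that stood apart, 3 of the 17 fell with shEGR2_40.9 and 4 fell and 2 rose with shEGR2_38.9. Grk5, a kinase that desensitises these receptors, fell by 0.74 and 0.62 with these hairpins. On the control diet it was higher than with PLKO by 0.77 with the EGR2 hairpins and by 0.57 with shGAL. Without that array its change with shEGR2_38.9 was -0.70 and its difference for the EGR2 hairpins 0.81. Of the genes of chemokine processing and retention, 10 of 13 were tested. Mmp13, a collagenase that can cleave chemokines, was higher than with PLKO on the control diet by 1.79 with the EGR2 hairpins (SE 0.21, adjusted p = 1.77e-06) and by 2.68 with shGAL (SE 0.25, adjusted p = 1.86e-07). Hspg2, the heparan sulfate proteoglycan perlecan, fell on the PA-rich diet by 0.60 with shEGR2_40.9 and by 0.74 with shEGR2_38.9. Without that array Hspg2 fell by 1.02 with shEGR2_38.9, and Mmp13 was 1.74 higher with the EGR2 hairpins than with PLKO in the control-diet groups.

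Keratinocyte markers, whose cells are a known source of Ccl27, Ccl20 and Cxcl14, also changed. With shEGR2_38.9, 4 of 10 rose on the PA-rich diet and 0 fell, and the mean of the list was 10.14 to 10.42 per array, against 9.36 to 9.89 on the control diet, where the lowest mean belonged to the array that stood apart and the other 2 were 9.79 and 9.89. Without that array 3 rose and 0 fell, and the median change of the list was 0.16, against 0.31 with it. With shEGR2_40.9 2 fell, with shGAL 1 fell and with PLKO 2 fell. Of all genes, 13.8% rose and 8.3% fell with shEGR2_38.9. The shares that fell were 5.22% with shEGR2_40.9, 0.608% with shGAL and 0.811% with PLKO. Against PLKO on the control diet, 4 of the markers were lower with the EGR2 hairpins, or 3 without that array, and 1 with shGAL. There 14.5% of all genes were lower with the EGR2 hairpins and 9.84% with shGAL. Ccl27a changed with the diet by -1.56 under shEGR2_38.9 and by -1.34 under shEGR2_40.9. It differed by 0.96 between the EGR2 hairpins and PLKO on the control diet. The part of keratinocytes in the results for Ccl27a, Ccl20 and Cxcl14 was not tested.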

How the data were processed

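Total RNA of the neural fraction of tumour stroma was isolated with magnetic beads, amplified as cDNA and hybridised to 24 mouse arrays, per the labels' protocols. The log2 values were deposited by the authors after RMA (affy), per the submitters' processing notes. The versions are not given in the sources used here. The number of arrays limits the precision. A gene was represented by the probe set with the highest mean among those naming it alone, which gave 17097 genes from 28898 of 45141 probe sets (551 name several genes and 15692 none). Genes below the 40th percentile of all probe set means were left out as dim, and 11844 were tested.

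Group means were fitted with limma 3.58.1 in R 4.3.3 (lmFit, eBayes, two-sided), with Benjamini-Hochberg adjustment over all genes tested and a threshold of 0.05. All 8 groups shared 1 estimate of the spread. The members and lists were chosen with earlier results of these data known. Members past the threshold are described by their arrays, the others by range and count, and at most 4 called genes were named from each further list. Within a hairpin, the replicate number goes with the scan batch given in the labels. Deviations of same-numbered arrays correlated between -0.03 and 0.24, with 7 of 12 above 0.1. The fit was tested on simulated data. Alternatives were a scan-batch block, only the arrays compared, no filter or a stricter filter, renewed quantile normalization, the mean of all probe sets, array weights, each EGR2 hairpin alone and leaving out each array. The comparison between the EGR2 hairpins was added after the data were seen.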

Additional observations from a re-analysis of the deposited data

Results flagged for a closer look

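The diet effect on several members differed between hairpins by a test of the difference itself (limma, Benjamini-Hochberg adjusted), and these values are given without explanation. The mean diet effect of the EGR2 hairpins minus that with PLKO was 0.62 for Ccl20 (adjusted p = 0.000203), -0.89 for Ccl27a (0.000587), 0.77 for Cxcl14 (0.00585), -0.47 for Ccl19 (0.00654) and -0.52 for Ccl5 (0.0385). For Ccl27a, Ccl19 and Ccl5 the diet effect was thus more negative with the EGR2 hairpins, and for Cxcl14 and Ccl20 more positive. The diet effect with shGAL minus that with PLKO was 0.90 for Ccl5 (adjusted p = 0.0139) and 0.49 for Ccl20 (0.0249). Between the EGR2 hairpins, the diet effect with shEGR2_38.9 minus that with shEGR2_40.9 was 0.85 for Ccl20 (adjusted p = 4.64e-05), 0.73 for Cxcl2 (0.00217) and 0.69 for Cxcl1 (0.0257), in a comparison chosen after seeing the data.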

How the results depend on the processing

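Of 39 called values of members, 18 were called in every setting run, 21 lost the call in at least 1 setting and 0 changed sign. With array weights the count of called members became 5 for the diet with PLKO, 2 for the diet with shGAL, 5 for the EGR2 hairpins against PLKO on the PA-rich diet, 5 for shGAL against PLKO on the PA-rich diet, and 8 and 4 for the difference of the diet effect from PLKO with the EGR2 hairpins and with shGAL. With only the arrays compared, which leaves fewer samples, it became 4 for the diet with shEGR2_38.9, 4 for the EGR2 hairpins on the PA-rich diet, 1 and 5 for shGAL on the control and the PA-rich diet, and 0 for the difference of the diet effect with shGAL. With renewed quantile normalization it became 2 for the EGR2 hairpins on the PA-rich diet and 1 for the difference of the diet effect with shGAL. With the mean of all probe sets it became 2 for the diet with shGAL and 2 for the EGR2 hairpins on the PA-rich diet. With shEGR2_40.9 alone it was 4 on the PA-rich diet and 3 for the difference of the diet effect, and with shEGR2_38.9 alone 0 on the PA-rich diet. With scan batch as a replicate block it became 2 for shGAL on the control diet; the block changed no call other than those given beside their results. The causes were not tested. Leaving out 1 array at a time gave 1 to 4 called members for the diet with PLKO, 4 to 7 with shEGR2_40.9, 5 to 7 with shEGR2_38.9 and 1 to 2 with shGAL. It gave 5 to 9 for the EGR2 hairpins against PLKO on the control diet and 1 to 3 on the PA-rich diet, and 1 to 6 and 2 to 4 for shGAL. For the difference of the diet effect it gave 4 to 8 with the EGR2 hairpins and 1 to 2 with shGAL, and for any difference among the groups 11 to 13. The share of all genes called in each setting is not given here, so these counts show only how the calls moved. Low signal left 24 members untested.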
